A study of Rattus norvegicus with 33 samples.

Results

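The prostate response to combined testosterone and estradiol (T+E) implants was compared between a late and an early stage, as the 3 arrays of T+E animals at postnatal day (PND) 145 against the 3 arrays of T+E animals at PND 100. These 6 arrays were taken by their sample labels from the 33 arrays of the series, which hold 10 groups. The animals were male Sprague-Dawley rats. All 6 had received vehicle injections on PND 1, 3 and 5, and none of them had the neonatal estradiol benzoate of 2.5 mg/kg that other groups of the series had. From PND 90 they carried 2 silastic tubes with testosterone and 1 with estradiol, so that the implants had been in place for 55 days at PND 145 and for 10 days at PND 100. Controls of the same ages, 3 arrays at PND 145 and 3 at PND 100, had the same vehicle injections and 3 empty tubes. The comparison between the ages therefore joins longer exposure with higher age. The controls give the same step in age without hormone, but their arrays also differed in ventral and seminal vesicle products, as given below.

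Testosterone and its reduced form maintain the secretory epithelium of the prostate and its lipid synthesis. Estradiol acts through estrogen receptors in stroma and epithelium and, at the pituitary, raises prolactin, and long exposure to both hormones is used in rats as a model of prostatic inflammation, dysplasia and carcinoma. Genes of sterol synthesis are switched on together by sterol regulatory element binding proteins (SREBPs), which work with the factor NF-Y at CCAAT boxes, while sterol exporters answer to liver X receptors when sterols are plentiful.

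Levels are given as the log2 signal of a gene's brightest probe relative to the 75th percentile of its array, so 0 is a bright gene and about -9 is background, and a difference of 1 is a factor of 2 in signal. A gene is said to have risen or fallen only where limma's adjusted p was under 0.05 over all 23129 genes tested. Differences carry their standard error (SE) from that fit.

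The labels call the tissue whole prostate, while the series title names the dorsolateral prostate. In the 12 arrays of T+E and control animals 61.5% to 64.7% of spots were well above background, 0 spots were saturated, and arrays of 1 group correlated at 0.954 or more. The dorsolateral product Msmb, a secreted beta-microseminoprotein, was at 5.90 to 6.17 with T+E at PND 145 and at 5.34 to 5.79 with T+E at PND 100, so this product was abundant in all 6 arrays. Products of the ventral lobe were present too and did not overlap between the T+E groups, although none of them passed the test. The median of the 5 measured ventral products was 2.01, 1.13 and 0.52 with T+E at PND 145, against 6.21, 6.16 and 6.14 with T+E at PND 100. The same median was 2.16, 4.66 and 6.10 in controls at PND 145 and 5.05, 2.17 and -1.32 in controls at PND 100, so it also spread widely within each control group. Seminal vesicle products stood high in control array 2 at PND 145 (median 4.35) and control array 3 at PND 100 (median 3.99), against -2.74 to -0.18 in the 6 T+E arrays. In bulk tissue fewer cells of a type and less RNA per cell cannot be told apart.

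Between 55 and 10 days of T+E, 10 genes differed, 5 higher and 5 lower, which is 0.0432% of the genes tested (0.0216% in each direction). At an unadjusted p under 0.05 the number was 1790, and the median difference over all genes was 0.03. The difference of the T+E effect between the ages, each against its own controls, was called for 6 genes (0.0259%), 3 in each direction (0.013% each), all among those 10. The controls alone gave 0 calls between PND 145 and PND 100 in limma, with 567 genes at an unadjusted p under 0.05. Without array 2 of T+E at PND 145 the fit called 5 genes between the T+E groups, without array 2 of T+E at PND 100 it called 6, and without array 1 of T+E at PND 100 it called 34.

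Akr1b7, an aldo-keto reductase first described as an androgen-dependent protein of the mouse vas deferens, showed the late response most clearly. It stood at -0.50, -2.23 and -2.57 with T+E at PND 145 and at -6.25, -8.01 and -8.49 with T+E at PND 100. Controls lay between -9.52 and -8.89, with no array well above background. The groups did not overlap, and at PND 100 only 1 of the 3 T+E arrays was well above background. Akr1b7 was higher at PND 145 by 5.82 (SE 0.53, adjusted p = 5.22e-07 in limma), and its T+E effect was larger at PND 145 by 5.80 (SE 0.75, adjusted p = 0.000644). Against controls it rose at least 42.0-fold at PND 145 (adjusted p = 1.81e-09), while the difference at PND 100 was 1.66 (SE 0.53, adjusted p = 0.233).

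Tnfaip8l3, which encodes a carrier of phosphoinositide lipids, was measured on all 12 arrays. It was at 0.65, 1.84 and 0.42 with T+E at PND 145, against -2.47, -2.12 and -2.62 with T+E at PND 100. Controls lay between -3.64 and -2.63 at PND 145 and between -3.31 and -2.93 at PND 100, so T+E at PND 100 stood close to the controls. The difference between the T+E groups was 3.37 (SE 0.44, adjusted p = 0.000318), and that of the T+E effects was 3.47 (SE 0.63, adjusted p = 0.0463). With the ventral products as a covariate, an alternative added after the data were seen, Akr1b7 and Tnfaip8l3 were higher by 6.0 and 3.22, both still called. The ventral products did not overlap between the T+E groups. Fits with this covariate, here and below, therefore cannot tell the level of these products apart from the stage.

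A further 2 calls in this direction carry no gene symbol in the sources used here. The transcript BU760317 was at -4.54, -5.62 and -3.11 with T+E at PND 145 and not well above background in the other 3 groups, at least 7.29-fold higher than with T+E at PND 100 (adjusted p = 0.00139). The probe A_64_P095088 was at -4.0, -3.10 and -4.32 with T+E at PND 145 and at -8.85, -5.73 and -6.84 with T+E at PND 100. It fell at PND 100 against controls by 3.67 (adjusted p = 0.00754), and at PND 145 it differed from controls by -0.48 (adjusted p = 0.899).

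Among the genes that were lower at PND 145, Srsf12 was dim and Efs changed little. Srsf12, a splicing regulator of the serine and arginine rich family, stood at -8.46, -8.99 and -9.18 with T+E at PND 145 and at -6.97, -5.57 and -3.40 with T+E at PND 100, at least 3.28-fold lower (adjusted p = 0.0131). LOC501230 was at least 10.1-fold lower (adjusted p = 0.0181) and the unnamed probe A_43_P22649 at least 4.68-fold lower (adjusted p = 0.0131), and neither was above background on any T+E array at PND 145. Efs, a docking protein of the Cas family that binds SH3 domains, was bright enough to be measured everywhere. It stood at -1.93, -2.13 and -2.73 with T+E at PND 145, against -1.39, -0.77 and -0.75 with T+E at PND 100, a difference of -1.29 (SE 0.25, adjusted p = 0.0462). The 6 control arrays lay between -0.93 and -0.71, and Efs fell at PND 145 against controls by 1.49 (adjusted p = 0.0022). The call of Efs between the T+E groups held in 7 of 18 alternatives and that of Srsf12 in 10 of 17. That of LOC501230 held in 10 of 18 and that of A_43_P22649 in 11 of 17. Of the higher calls without a symbol, A_64_P095088 held in 11 of 18 and BU760317 in 16 of 17. With the ventral products as a covariate 6 genes were higher at PND 145 and 0 were lower in limma (1610 genes in either direction at an unadjusted p under 0.05). Among the 6 was Plpp1, a phosphatase of lipid phosphates, at 1.33 (adjusted p = 0.0284).

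**Figure D1:**
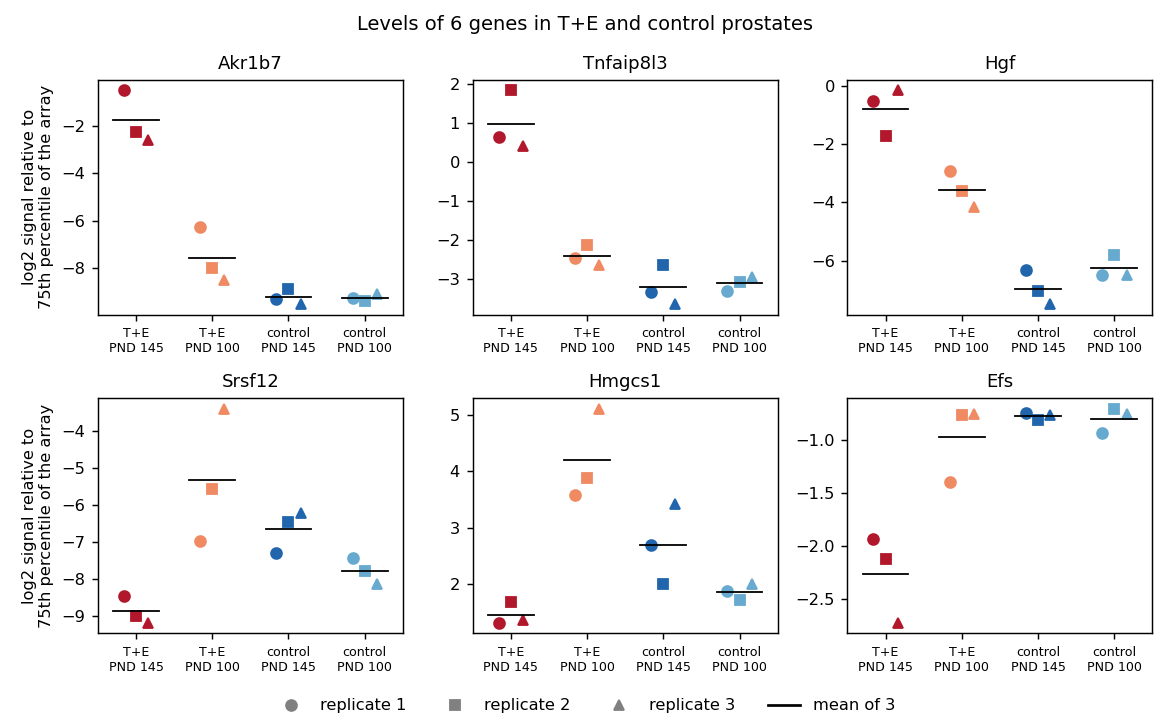
Log2 signal relative to the array's 75th percentile (vertical axes) of 6 genes in T+E and control prostates at PND 145 and PND 100; symbols are arrays 1 to 3 of each group and lines are means of 3. Akr1b7, Tnfaip8l3 and Hgf stood highest with T+E at PND 145, and Srsf12 and Hmgcs1 had their highest mean with T+E at PND 100.

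Further genes were separated between the ages without passing the test. Hgf, the ligand of the receptor Met and a stromal growth factor for epithelium, was at -0.52, -1.72 and -0.16 with T+E at PND 145, against -2.91, -3.60 and -4.16 with T+E at PND 100 (difference 2.76, SE 0.56, adjusted p = 0.0564). Its controls lay between -7.49 and -5.82. Hgf rose against controls at both ages, by 6.15 (SE 0.56, adjusted p = 3.06e-07) at PND 145 and by 2.71 (adjusted p = 0.0394) at PND 100, where the call held in 10 of 18 alternatives. Met itself was at 0.86, 1.66 and 0.82 with T+E at PND 145 and at 0.17, 0.68 and 0.77 with T+E at PND 100, and did not pass in either comparison with controls.

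Homer1, a scaffold protein of synapses, stood lower early and near controls late. It was at -2.96, -2.06 and -1.62 with T+E at PND 145 and at -5.41, -6.20 and -3.85 with T+E at PND 100 (difference 2.94, adjusted p = 0.0564). It fell at PND 100 against controls by 2.74 (adjusted p = 0.0495), where controls were between -2.47 and -2.38, and this call held in only 3 of 18 alternatives (adjusted p up to 0.307). Cyp17a1, the enzyme that makes androgen precursors from progestogens, was at -2.33, 0.96 and -1.04 with T+E at PND 145, against -4.71, -5.29 and -6.22 with T+E at PND 100 (difference 4.60, SE 1.01, adjusted p = 0.068). Plpp1, Slc66a3, Txndc12, Dync2li1, Abcg8, Slc38a9 and Wfdc2 stood in the same direction, with differences of 0.75 to 2.85 and adjusted p-values of 0.0564 to 0.113. In 3 dim genes only a bound can be given: the chemokine receptor Cxcr2 was at least 5.17-fold higher at PND 145 (adjusted p = 0.326), the adhesion receptor Adgrg7 at least 4.63-fold (adjusted p = 0.0564) and the protease Capn8 at least 3.86-fold (adjusted p = 0.469).

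Other genes stood lower at PND 145 without passing the test. Hsd17b6, an oxidative enzyme of androgen metabolism, was at -6.02, -5.50 and -5.98 with T+E at PND 145 and at -1.98, -0.92 and 0.26 with T+E at PND 100 (difference -4.96, SE 1.12, adjusted p = 0.0785). Hmgcs1 and Elovl6 are given with the sterol genes below. Eepd1, Pcsk4, Aspa, Fstl3, Fbxl16, Morc4, Ampd3 and Kcnk12 had differences of -4.78 to -1.28 and adjusted p-values of 0.0564 to 0.108. The largest bounds were those of Slc5a11, a sodium and inositol transporter, at least 169-fold lower at PND 145 (adjusted p = 0.0587), of the neurexin ligand Nxph1 at least 119-fold (adjusted p = 0.0564), and of Cracd at least 102-fold (adjusted p = 0.188). In these 3 genes control array 3 at PND 145, which also had the highest ventral median of the controls, was at -0.21, -1.23 and -1.25. With the ventral products as a covariate their fitted differences were -7.14, -5.80 and -3.58, against -9.31, -8.63 and -7.21 without it, and that of Hsd17b6 was -3.39. Slc5a11 was at -0.28, -0.01 and 1.43 with T+E at PND 100.

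Sterol and fatty acid synthesis genes stood lower after 55 than after 10 days as a group. Of 34 genes on the list all were measured, 32 had a negative difference, and in 25 the T+E arrays at PND 145 lay below all T+E arrays at PND 100, where 9.51% of all genes did. The median difference of the list was -1.13, against 0.03 over all genes. None of the 34 passed the test in limma, and 17 had an unadjusted p under 0.05.

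Hmgcs1, which makes the precursor of mevalonate, was at 1.31, 1.68 and 1.36 with T+E at PND 145, against 3.59, 3.88 and 5.11 with T+E at PND 100 (difference -2.74, SE 0.57, adjusted p = 0.0564). Fdps, which joins isoprene units into farnesyl diphosphate, was at 1.0, 0.79 and 1.08 with T+E at PND 145 and at 3.36, 4.27 and 4.95 with T+E at PND 100 (difference -3.23, adjusted p = 0.188). In both genes the T+E groups were apart and T+E at PND 100 also stood above all 6 controls. Elovl6, an elongase of fatty acids, was at -3.65, -3.20 and -2.79 with T+E at PND 145 and at -1.42, -0.73 and 0.00 with T+E at PND 100 (difference -2.50, adjusted p = 0.0564). Mvk and Mvd, kinase and decarboxylase of the mevalonate pathway, differed by -1.36 (adjusted p = 0.118) and -1.26 (adjusted p = 0.17). All 3 early arrays of these genes lay above all 3 late ones.

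The list lay below controls at PND 145 and above them at PND 100. At PND 145 the list's median was -0.68 against controls, with 23 of 34 genes below all control arrays, where 12.7% of all genes were. At PND 100 it was 0.82, with 16 of 34 genes above all control arrays, where 10.4% of all genes were, and between the control ages it was 0.27. Per array the list's median was 0.18, 0.26 and 0.00 with T+E at PND 145 and 0.89, 1.48 and 1.74 with T+E at PND 100, with 0.52, 0.59 and 1.37 in controls at PND 145 and 0.82, 0.39 and 0.46 in controls at PND 100. In each age's controls the array highest in the ventral products was also highest in this list. With the ventral products as a covariate the list's median difference between the T+E groups was -0.54 and 30 genes were negative. Within slide 1, which held 1 array of each T+E group, the median was -0.55, and within slide 3 it was -1.88.

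Abcg5 and Abcg8 encode the subunits of 1 sterol exporter, and both stood higher at PND 145 without passing between the T+E groups. Abcg5 was at 3.09, 3.08 and 4.25 with T+E at PND 145 and at 2.50, 1.0 and 0.22 with T+E at PND 100, a difference of 2.23 (adjusted p = 0.147), and it rose against controls at PND 145 by 4.07 (SE 0.58, adjusted p = 0.000295). Abcg8 was at 1.41, 1.44 and 2.67 with T+E at PND 145 and at 0.20, -1.0 and -2.24 with T+E at PND 100 (difference 2.85, adjusted p = 0.0858), and it rose against controls at PND 145 by 3.80 (SE 0.65, adjusted p = 0.00288). Neither passed against controls at PND 100, at 0.84 and 0.14. Their start sites in RefSeq GRCr8 lie 206 bases apart on opposite strands. The neighbour of Abcg5 on its other side is Dync2li1, a light chain of the ciliary dynein, a neighbourhood looked up after the values were seen. Dync2li1 rose against controls at PND 145 by 3.01 (adjusted p = 3.43e-05).

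**Figure D2:**
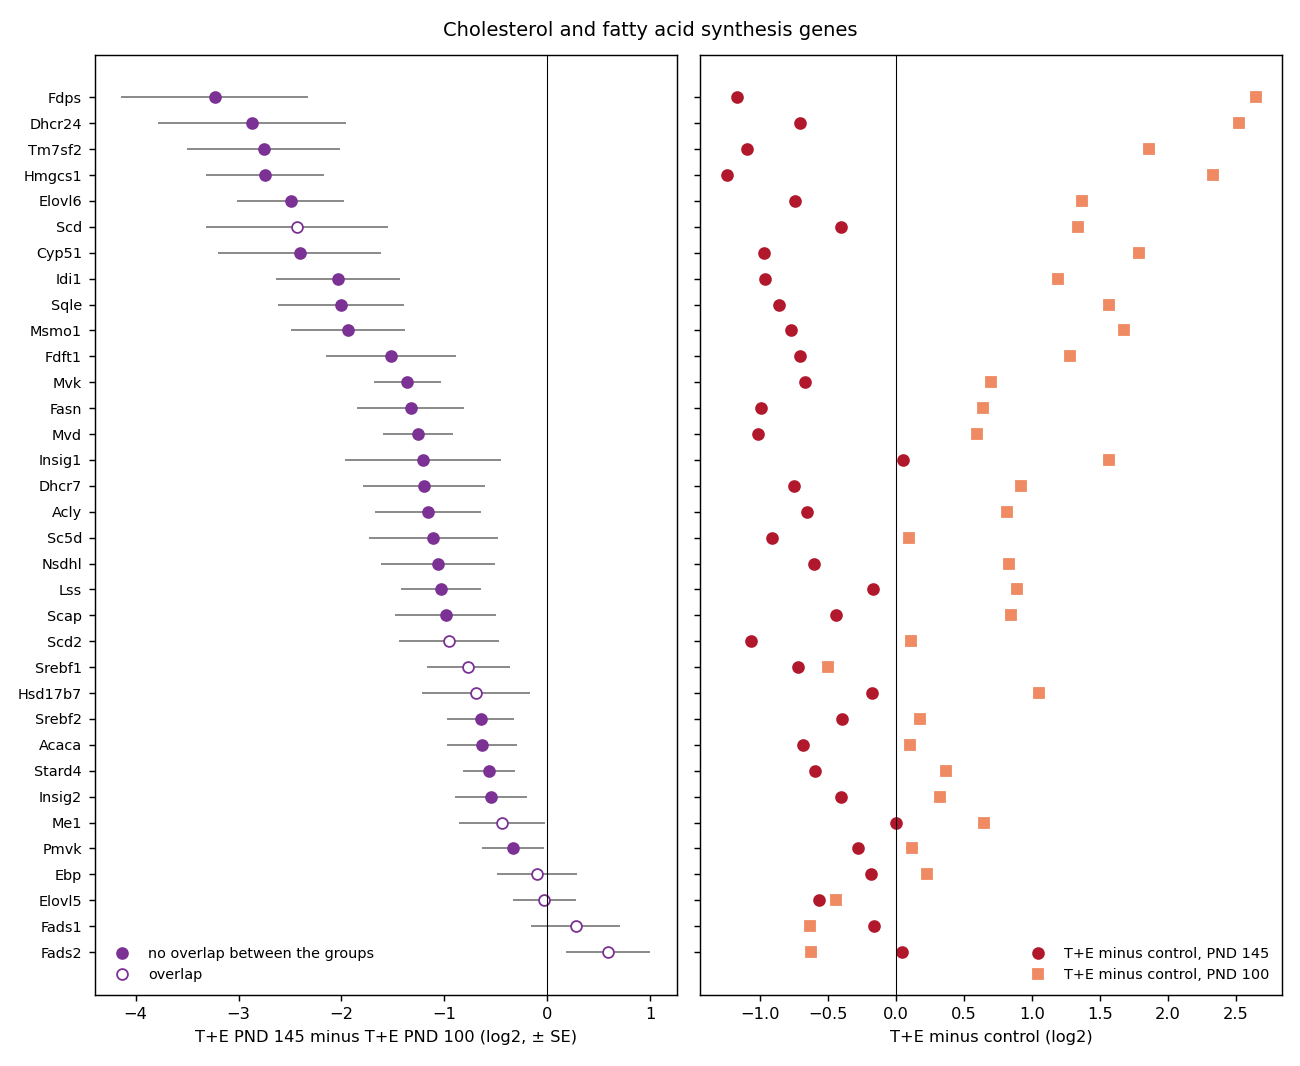
Log2 differences of the 34 sterol and fatty acid synthesis genes: left, T+E at PND 145 minus T+E at PND 100 with SE, filled where the arrays of the groups do not overlap; right, T+E minus control at each age. Of the 34 genes 32 lie left of 0 in the left panel, and most lie left of 0 at PND 145 and right of 0 at PND 100 in the right panel.

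The promoters of 4 of these synthesis genes and of Abcg5 are shown because SREBP works with NF-Y at the CCAAT box. The 4 had the lowest differences among list genes with a single window that held CCAAT. Its presence in these 4 was therefore set by the choice and is no result. They are the 250 bases before the gene's start in RefSeq GRCr8, 5′ to 3′ on the gene's strand, with CCAAT or its complement ATTGG in capitals.
Fdps (chr2:176804817-176805066, minus strand): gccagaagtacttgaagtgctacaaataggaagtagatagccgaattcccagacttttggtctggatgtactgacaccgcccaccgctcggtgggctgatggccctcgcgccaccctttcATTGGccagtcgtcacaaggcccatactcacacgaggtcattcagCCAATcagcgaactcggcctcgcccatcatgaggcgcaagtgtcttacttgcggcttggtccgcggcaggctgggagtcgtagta
Tm7sf2 (chr1:212789542-212789791, minus strand): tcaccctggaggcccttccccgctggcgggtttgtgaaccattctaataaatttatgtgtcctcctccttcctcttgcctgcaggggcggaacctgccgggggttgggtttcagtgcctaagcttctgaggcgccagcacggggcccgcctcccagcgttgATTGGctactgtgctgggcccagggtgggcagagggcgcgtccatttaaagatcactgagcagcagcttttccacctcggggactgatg
Hmgcs1 (chr2:53382054-53382303, plus strand): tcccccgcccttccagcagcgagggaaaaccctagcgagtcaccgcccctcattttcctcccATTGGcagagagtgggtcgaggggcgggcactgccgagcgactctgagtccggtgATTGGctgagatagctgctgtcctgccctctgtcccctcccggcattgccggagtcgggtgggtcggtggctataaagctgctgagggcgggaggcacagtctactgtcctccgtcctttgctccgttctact
Idi1 (chr17:66547525-66547774, minus strand): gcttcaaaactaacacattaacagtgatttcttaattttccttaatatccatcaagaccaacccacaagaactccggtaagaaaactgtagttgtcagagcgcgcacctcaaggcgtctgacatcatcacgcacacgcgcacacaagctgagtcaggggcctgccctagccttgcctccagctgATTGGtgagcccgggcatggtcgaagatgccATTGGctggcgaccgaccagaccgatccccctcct
Abcg5 (chr6:15717686-15717935, plus strand): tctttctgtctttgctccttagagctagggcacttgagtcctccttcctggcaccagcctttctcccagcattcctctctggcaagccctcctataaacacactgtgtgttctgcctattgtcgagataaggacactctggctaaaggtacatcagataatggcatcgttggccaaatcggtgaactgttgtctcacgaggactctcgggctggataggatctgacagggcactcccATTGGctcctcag

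Of the 34 list genes 26 had a window in the table, with 27 windows. CCAAT, searched on both strands, was in 21 of them (77.8%), against 34.0% of 33469 windows of all genes. The letters TCACNCCAC, searched the same way with any overlap with CCAAT allowed, were in 0 of the 27 windows and in 0.974% of all windows. A match is a match of letters in this window only. Both shares belong to a list chosen by gene function, set against windows of all genes. They do not use the array values and are no result about T+E.

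Against controls of their own age, 89 genes differed with T+E at PND 145 (0.385% of genes) and 42 at PND 100 (0.182%). At PND 145 67 were higher (0.29%) and 22 lower (0.0951%), and at PND 100 30 were higher (0.13%) and 12 lower (0.0519%). Of these, 12 genes were called at both ages, which is 13.5% of the late and 28.6% of the early calls, and all 12 had the same direction. The 9 with a gene symbol were Akap14, Aph1b, Bst1, Hapln2, Hgf, Khdrbs2, Mipep and Zbtb40, which rose, and Elapor2, which fell. These 9 genes did not pass the test between the T+E groups, and for all but Hgf the difference between 55 and 10 days was 1.20 or less in size.

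Hapln2, a link protein of hyaluronan matrix, was at 4.88, 3.94 and 4.95 with T+E at PND 145 and 4.96, 4.44 and 3.13 with T+E at PND 100. Controls were at -1.51, -0.69 and -1.95 at PND 145 and at 0.28, -1.06 and -0.75 at PND 100. The rise against controls was 5.97 (SE 0.76, adjusted p = 5.18e-05) late and 4.69 (SE 0.76, adjusted p = 0.00754) early, with the T+E arrays of both ages in 1 range. Zbtb40, a zinc finger protein, rose by 5.33 (SE 0.58, adjusted p = 4.78e-06) late and 3.99 (SE 0.58, adjusted p = 0.00431) early. Bst1, an enzyme that makes cyclic ADP-ribose, rose by 4.38 (SE 0.52) and 2.81 (SE 0.52), and Khdrbs2, an RNA-binding protein, by 6.38 (SE 0.83) and 4.69 (SE 0.83). Khdrbs2 was not well above background in controls at PND 145, where the rise was at least 35.8-fold. Elapor2 was the 1 named gene that fell at both ages, by 1.95 (SE 0.42, adjusted p = 0.0274) late and by 2.12 (SE 0.42, adjusted p = 0.026) early, calls that held in 10 of 18 alternatives at each age.

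The late rises mostly had the same sign at PND 100. Of the 67 genes higher at PND 145, 65 had a positive difference at PND 100, where 10600 of all 23129 genes did. Counted in either direction and at any size, 60.6% of all genes had the same sign at both ages. Clca1, a secreted protein of mucous cells, was at 1.58, 5.68 and 2.56 with T+E at PND 145, at -4.08, -1.94 and -2.90 with T+E at PND 100 and not well above background in controls at PND 145. It rose at least 1385-fold at PND 145 (adjusted p = 0.000139), and at PND 100 the difference was 4.34 (SE 1.61, adjusted p = 0.359). Csn2, the milk protein beta-casein and a classic prolactin target, was at -2.49, -4.34 and 1.40 with T+E at PND 145 and at -5.80, -5.31 and -3.88 with T+E at PND 100, with none of the 6 controls well above background. It rose at least 40.8-fold at PND 145 (adjusted p = 5.61e-05), and at PND 100 it was at least 4.65-fold higher without passing (adjusted p = 0.0573). Saal1 and Gcnt3, a branching enzyme of mucin glycans, rose at PND 145 by 7.11 (SE 1.52, adjusted p = 0.0274) and 6.30 (SE 1.45, adjusted p = 0.0491). Rbp7, a retinol carrier, rose there by 4.66 (SE 1.01, adjusted p = 0.0295). These calls held in 10 of 18 alternatives for Saal1, 6 of 18 for Gcnt3 and 11 of 18 for Rbp7. Clca1, Csn2 and Abcg5 were singled out after their values were seen.

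Of the 30 genes higher at PND 100, 16 had a positive difference at PND 145, where 10684 of all 23129 genes did. Of the 12 lower ones 11 had a negative difference at PND 145, where 12422 of all genes did. Fstl3, which binds activin, was at -3.90, -3.63 and -4.02 with T+E at PND 145 and at -2.68, -2.50 and -2.55 with T+E at PND 100, with all 6 controls between -4.27 and -3.77. It rose at PND 100 by 1.51 (SE 0.28, adjusted p = 0.0173), and at PND 145 the T+E arrays lay within or near the range of controls (0.23, adjusted p = 0.899). B4galt6, a glycolipid galactosyltransferase, rose at PND 100 by 3.78 (SE 0.82, adjusted p = 0.0495) and differed by 0.06 at PND 145. Runx2, a transcription factor of bone, rose at PND 100 by 2.56 (adjusted p = 0.0318), and Impa2, an inositol phosphatase, fell there by 1.80 (adjusted p = 0.0495). The early calls of B4galt6 and Impa2 held in 5 of 18 alternatives each, and those of Fstl3 and Runx2 in 10 of 18 each. Runx2 was singled out after its values were seen.

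The number of falls at PND 145 moved with the arrays used. Without control array 2 of PND 145 the fit called 5 genes lower, and without control arrays 1 and 3 it called 20 and 111. Without T+E arrays 1, 2 and 3 of that age it called 6, 9 and 9. Of the 22 genes lower in the main fit, 16 had their highest level of the 6 arrays in control array 2. The share of all genes with that order was not counted. Among the 22 genes, 5 were on the list of testis and epididymis genes. That list's median was 1.58 in control array 2 at PND 145, against -4.33 and -5.73 in the other controls of that age and -8.35 to -6.90 in the 6 T+E arrays. Tnp1, a protein of spermatid nuclei, was at -8.26, -6.72 and -8.80 with T+E at PND 145 and at -1.53, 4.22 and -3.90 in controls. Without the 2 control arrays high in seminal vesicle products, 46 of the 89 late calls and 3 of the 42 early calls kept their call, and 2 of the 12 genes kept both. Refitted in that way, 53 genes were called at PND 145 and 5 at PND 100. Without control array 2 at PND 100 alone, 0 genes were called at PND 100 in limma (1672 at an unadjusted p under 0.05).

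**Figure D3:**
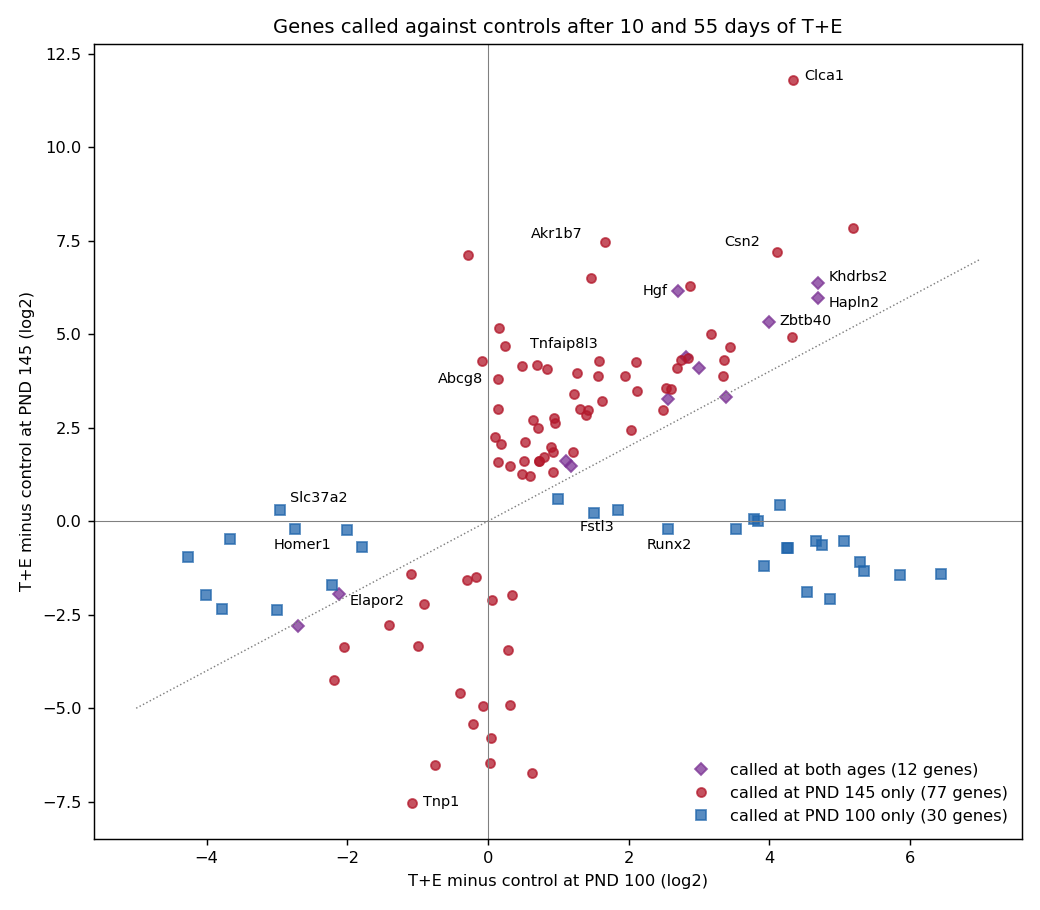
Log2 difference from controls at PND 145 (vertical) against that at PND 100 (horizontal) for the genes called at either age, with the line of equal differences dotted; 12 genes were called at both ages, 77 at PND 145 only and 30 at PND 100 only. Akr1b7 and Clca1 lie far above the line.

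The named hormone receptors and reducing enzymes gave no call between the T+E groups. Esr1, the main estrogen receptor of stroma, was at -4.34, -5.08 and -4.05 with T+E at PND 145, against -5.06, -4.92 and -5.82 with T+E at PND 100 (difference 0.78, adjusted p = 0.783). Esr2 differed by -0.23, Srd5a1 by 0.54 and Srd5a2, a steroid reductase of prostate stroma, by -0.20. Pgr, an estrogen target, was well above background on only 1 array of each T+E group. The prolactin receptor gene Prlr was at -2.87, -3.31 and -3.07 with T+E at PND 145, against -1.08, -0.17 and 0.18 with T+E at PND 100, without overlap (difference -2.73, SE 1.20, adjusted p = 0.555). With the ventral covariate its difference was -1.10.

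No gene of the hormone-responsive lists passed between the T+E groups, and the counts of separated genes stand beside a background of 9.3% upward and 9.51% downward. Of 37 androgen-responsive genes 5 were separated upward and 4 downward (median 0.07). Klk1, a glandular kallikrein, was at -4.46, -4.77 and -4.55 with T+E at PND 145 and at 1.95, 2.30 and 3.70 with T+E at PND 100 (difference -7.24, SE 2.52, adjusted p = 0.353), and in controls it ran from -6.29 to 2.68. With the ventral covariate the difference of Klk1 was -1.82. The groups of Klk1 were far apart while its controls spread over much of the same range. Of 34 estrogen-responsive genes 4 were separated upward and 2 downward (median 0.22). Greb1, an early estrogen target in human breast cells, was at -1.41, -2.48 and -2.41 with T+E at PND 145 and at -2.52, -3.65 and -4.43 with T+E at PND 100, its 6 controls lying between -4.87 and -3.60. Wnt5a, a secreted Wnt ligand, was at -3.53, -2.69 and -2.55 with T+E at PND 145, against -4.03, -3.98 and -5.14 with T+E at PND 100. Neither passed between the T+E groups (adjusted p = 0.657 and 0.539).

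Of 28 steroid enzymes and receptors 4 were separated upward and 3 downward (median 0.04). Cyp7b1, which hydroxylates oxysterols and androgen metabolites, was at -0.76, -0.93 and -1.48 with T+E at PND 145 and at 2.16, 2.10 and 3.70 with T+E at PND 100 (difference -3.72, adjusted p = 0.417, and -1.69 with the ventral covariate). Cyp17a1 and Hsd17b6, given above, thus stood in opposite directions on 1 list. The ventral products themselves gave no call, although all 5 measured ones were separated downward, with a median difference of -4.53. Sbp, a secreted spermine-binding protein, was at 0.62, 2.13 and -1.53 with T+E at PND 145 and at 6.40, 6.59 and 6.48 with T+E at PND 100 (difference -6.08, SE 1.90, adjusted p = 0.261). Within slides 1 and 3 the list's median difference was -3.61 and -4.35. The part of the lobes sampled was entered only as that covariate, which cannot be told apart from the stage, and was not tested otherwise.

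Many genes of the matrix, myeloid and complement lists stood above controls at both ages, and no gene of these lists passed the test. Of 43 fibroblast and matrix genes, 27 stood above all controls at PND 145 and 19 at PND 100, where 9.12% and 10.4% of all genes did, with medians of 1.00 and 0.80. Between the T+E groups the list's median was -0.29, with 1 gene separated upward and 3 downward. Between the control ages it was -0.56, with 0 genes separated upward and 11 downward, where 1398 and 1002 of all 23129 genes were. Col1a1, the main fibrillar collagen chain, was at 1.70, 2.79 and 1.75 with T+E at PND 145 and at 3.31, 3.40 and 2.77 with T+E at PND 100, with controls at 0.23, 0.44 and 1.22 at PND 145 and at 1.98, 2.30 and 0.82 at PND 100. No gene of this list passed in any of these comparisons.

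Of 37 myeloid genes 20 stood above all controls at PND 145 and 11 at PND 100, and of 22 complement genes 13 and 7 did. Between the T+E groups 4 myeloid genes were separated upward and 2 downward, where 9.3% and 9.51% of all genes were. The inflammatory mediators had a median difference of 0.61, with 7 of 41 separated upward and 0 downward, and none passed. Array 2 of T+E at PND 145 stood apart in this list, at a median of -1.73 against -4.63 and -5.16 in the other late arrays and -5.18 to -4.46 with T+E at PND 100. The neutrophil chemokine gene Cxcl2 was at -2.94, 2.02 and -4.91 with T+E at PND 145 and at -4.41, -7.16 and -8.00 with T+E at PND 100. Complement C3 was at -2.10, 2.40 and -2.89 with T+E at PND 145, against -1.21, -2.51 and -2.05 with T+E at PND 100; array 2 alone was above every T+E array at PND 100. Its part in these values was not tested.

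**Figure D4:**
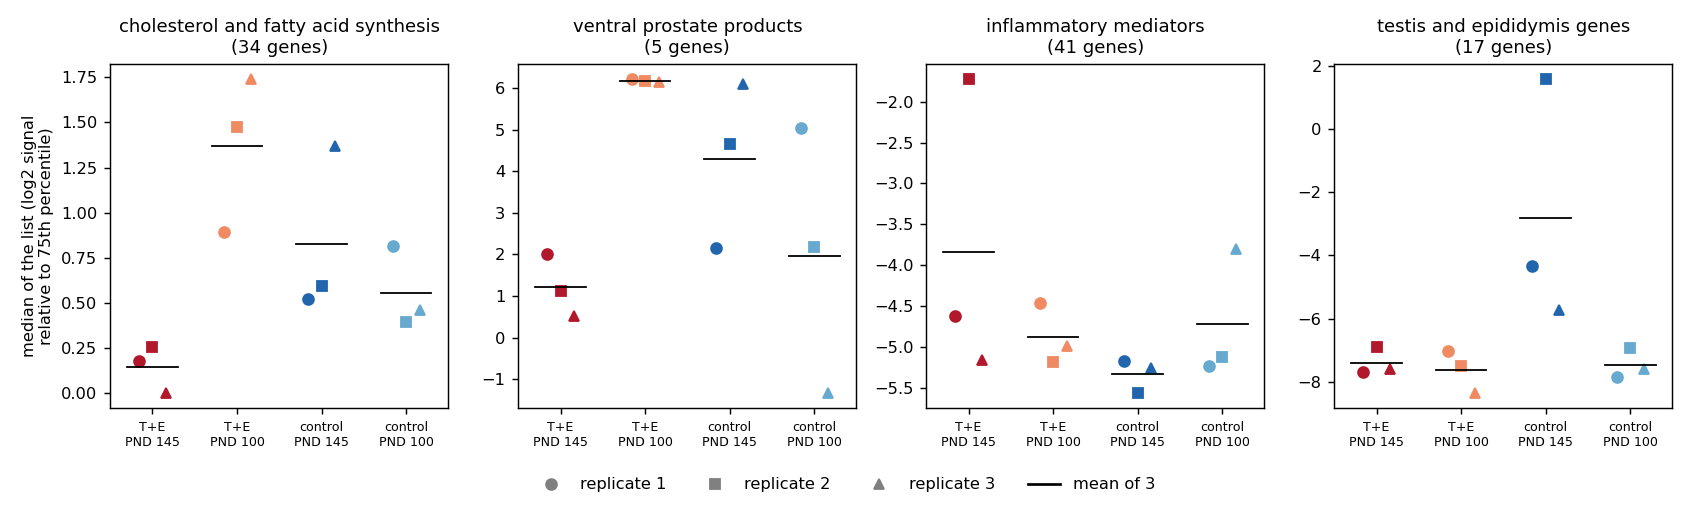
Median log2 signal of 4 gene lists (vertical axes) in each array of T+E and control prostates, with lines at the mean of 3. The sterol and ventral lists had their highest mean with T+E at PND 100, array 2 of T+E at PND 145 stood apart in inflammatory mediators, and control array 2 at PND 145 in testis and epididymis genes.

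Antioxidant genes included several that stood higher late. Of 32 measured, 9 were separated upward and 2 downward, where 9.3% and 9.51% of all genes were. Their median was 0.06, and none passed. Nqo1, a quinone reductase, was at -1.87, -0.92 and -1.15 with T+E at PND 145 and at -2.28, -3.16 and -4.15 with T+E at PND 100 (difference 1.88, adjusted p = 0.322). Gpx2, a glutathione peroxidase of epithelium, was at 2.70, 4.01 and 2.77 with T+E at PND 145 and at 1.95, 0.68 and -0.37 with T+E at PND 100 (difference 2.41, adjusted p = 0.399). Of 54 branching and growth signals 9 were separated upward and 3 downward, among them Hgf, Tgfa, an epidermal growth factor receptor ligand (1.10, adjusted p = 0.249), and Sox9, a transcription factor of prostate buds (1.05, adjusted p = 0.545). Of the proteases and their inhibitors 7 of 34 were separated upward and 2 downward. Mmp7, a matrix metalloprotease of glandular epithelium, was at 5.80, 5.72 and 4.16 with T+E at PND 145 and at 3.58, 3.74 and 2.21 with T+E at PND 100 (difference 2.05, adjusted p = 0.574).

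Proliferation genes and the structural cell types gave few separated genes between the T+E groups. Of 48 proliferation genes 0 were separated upward and 1 downward (median -0.14), where 9.3% and 9.51% of all genes were. Against controls at PND 145 there was 1 separated upward and 10 downward, where 9.12% and 12.7% of all genes were. Smooth muscle, endothelial, adipocyte and skeletal muscle lists had 0 separated genes in either direction. Even so, 16 of 18 adipocyte genes had a negative difference (median -0.675). The adipocyte array medians were -3.49, -2.44 and -3.63 with T+E at PND 145 and -3.44, -0.60 and -2.90 with T+E at PND 100. Within slides 1 and 3 the adipocyte median difference was -0.05 and 0.60. Between the control ages it was -1.56, with 17 of 18 genes negative. The skeletal muscle list varied widely within groups. Its array medians ran from -5.30 to 0.53 with T+E at PND 145 and from -4.16 to 1.68 with T+E at PND 100. Of 23 luminal epithelial genes 3 were separated upward and 0 downward (median 0.20). Elf3, an epithelial transcription factor, was at 3.22, 3.95 and 3.18 with T+E at PND 145 and at 2.67, 2.22 and 1.12 with T+E at PND 100, and Foxa1, a pioneer transcription factor of epithelium, differed by 1.22 (adjusted p = 0.404). None of the genes of these lists passed the test between the T+E groups.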

How the data were processed

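Total RNA of RIN 8 or more was labelled with Cy3 (500 ng) and hybridised to single-colour Agilent arrays, per the labels' protocols. Spots were read, per the file headers, with Feature Extraction 12.0.0.7 under protocol GE1_1200_Jun14 (array design 074036, grid build rn4). The deposited scanner files hold linear intensity values, background-subtracted and detrended and not scaled between arrays, per the file headers. The value table the authors deposited has an intensity per probe and array, linear and not centred: against the scanner values its log correlation was at least 0.999982, its 75th percentiles ran from 619.357 to 619.517 and its column medians from 30.8 to 49.9. The sources used here do not say how it was made.

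From the deposited intensity, log2 was taken and the log2 of the 75th percentile of all non-control spots of that array subtracted, outlier spots were left out and spots of 1 probe averaged. Of 45598 probes accessions matched to RefSeq genes named 24470, symbols 6442 and synonyms 318, while 10370 kept the files' name and 3998 had none. Probes well above background on at least 3 arrays (30548) were kept, and the brightest stood for each gene, which gave 23129 genes, 15733 with a gene symbol. Means of all 10 groups over 33 arrays were fitted in R 4.3.3 by limma 3.58.1 (trended, robust) with Benjamini-Hochberg adjustment at 0.05 within each of 5 comparisons. The labels give 3 to 4 litters a group, so p-values reflect only the spread between the arrays, and 3 arrays a group limit the precision. Where no array of a group was well above background, folds are bounds: the bright group's mean is set against the dim group's, in which each array counts with its own signal or its lowest well measured signal, whichever is greater. Probes of gene families such as secretoglobins and kallikreins may bind related transcripts.

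The T+E groups, the 35 gene lists and the tests were chosen with earlier results of these data known. Named genes were the 12 per direction between the T+E groups (called genes first, then by p) and 6 per direction in the other comparisons, among genes with a symbol, well above background and without overlap, besides the 3 largest bounds per direction, up to 5 members per list, and the receptors and reductases. Lists are described by counts and medians, with no test. Some genes these rules would name are not reported here and were left out of the lists, and they stay in the counts over all genes.

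Both T+E groups had 1 array each on slides 1 and 3. Same-numbered T+E arrays correlated in their deviations at 0.084, 0.124 and 0.179, so replicate numbers were not taken as pairs. Alternatives were normexp correction (offset 50), quantile scaling, no filter or one of 17 arrays, slide or replicate as a block, the value table, the mean of probes, array weights, only the groups compared, and each array left out. Added after seeing the data were the ventral covariate and a fit that drops 2 control arrays. On simulated data for T+E at PND 145 against PND 100 (23129 genes) limma recovered 18% of genes changed by 1 and 53% changed by 2 on the log2 scale, with 6 false calls. The simulated noise was independent between genes and equal in spread on all arrays. The measured arrays also vary in tissue content across many genes together, which the simulation left out.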

Additional observations from a re-analysis of the deposited data

Results flagged for a closer look

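The T+E effect against controls differed between PND 145 and PND 100 for 6 genes by the interaction in limma, and 4 of them are given here. It was larger at PND 145 for Akr1b7 by 5.80 (adjusted p = 0.000644) and for Tnfaip8l3 by 3.47 (adjusted p = 0.0463). It was smaller at PND 145 for the unnamed probe A_43_P22649 at -6.45 (adjusted p = 0.0233) and for Srsf12 at -4.70 (adjusted p = 0.0463). Of these genes only Tnfaip8l3 was measured in all 4 groups. A_43_P22649 and Srsf12 had 0 arrays well above background with T+E at PND 145 and in controls at PND 100, and Akr1b7 had 0 in controls of both ages, so these 3 sizes are differences from background signal and not measured folds. In all 4 the 3 T+E arrays at PND 145 were apart from the 3 at PND 100. Akr1b7 was called in 22 of 23 alternatives, the exception being a fit of only the groups compared (adjusted p = 0.0943). The other 3 were called in 6 to 11 of their alternatives. With the ventral products as a covariate Akr1b7 alone was called.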

How the results depend on the processing

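Counts of calls moved with the processing, and the cause was not tested except where fewer genes or arrays entered by construction. Between the T+E groups, 10 genes were called; the number was 1 with a filter of 17 arrays, 123 with slide as a block (22 higher, 101 lower), 18 with the mean of all probes, 1893 with array weights (835 higher, 1058 lower), 147 with only the groups compared (10 higher, 137 lower) and 6 with the ventral covariate. Quantile scaling gave 7 higher and 8 lower, and normexp correction 6 and 1. Leaving out 1 array gave 5 (without T+E array 2 of PND 145) to 34 (without T+E array 1 of PND 100), with 6 without T+E array 2 of PND 100. Akr1b7 kept its call in 17 of 17 and Tnfaip8l3 in 18 of 18 alternatives that held them, with adjusted p-values up to 0.0265 and 0.0196. Srsf12 kept it in 10 of 17, Efs in 7 of 18 and LOC501230 in 10 of 18. A_43_P22649 kept it in 11 of 17, A_64_P095088 in 11 of 18 and BU760317 in 16 of 17.

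The 6 calls of the interaction became 2 with normexp correction, 2 with no filter, 0 with a filter of 17 arrays (770 at an unadjusted p under 0.05), 20 with slide as a block, 566 with array weights, 0 with only the groups compared (2126 at an unadjusted p under 0.05), 1 with the ventral covariate and 2 without both control arrays, and 1 to 12 (without control array 1 of PND 145) with 1 array left out. The 89 calls at PND 145 became 150 with quantile scaling, 47 with a filter of 17 arrays, 135 in the value table, 1453 with array weights, 23 with only the groups compared and 53 without both control arrays, and 53 (without control array 2) to 177 (without control array 3) with 1 array left out, with 56 without T+E array 1. The 42 calls at PND 100 became 23 with normexp correction, 18 with a filter of 17 arrays, 80 with slide as a block, 2138 with array weights, 246 with only the groups compared, 15 with the ventral covariate and 5 without both control arrays, and 0 (without control array 2, 1672 at an unadjusted p under 0.05) to 32 with 1 array left out, with 4 and 13 without control arrays 3 and 1 and 9 without T+E array 2. The 0 calls between control ages became 3 with array weights, 2 without both control arrays and 0 to 75 (without array 3 of PND 145) with 1 array left out. The sterol list's median of -1.13 was -0.54 with the ventral covariate, -0.55 within slide 1 and -1.88 within slide 3, and the ventral list's was -3.61 within slide 1. With replicate number as a block 9, 6, 79, 51 and 0 genes were called between the T+E groups, for the interaction, at PND 145, at PND 100 and between control ages. Signal over background limits Akr1b7, Srsf12 and A_43_P22649, which lie at background in some groups.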

Other observations

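Some genes of the lists had a wide gap between the T+E groups without passing the test, and control array 3 at PND 145, the control with the highest ventral median, stood high in them too. Cd55, a complement inhibitor on cell surfaces, was at -1.03, -1.46 and -1.77 with T+E at PND 145 and at 2.83, 3.79 and 4.41 with T+E at PND 100, and at 2.80 in that control (difference -5.10, SE 1.38, adjusted p = 0.173). Cd22, known as a receptor of B cells, was at 0.53, -0.17 and 1.44 with T+E at PND 145 and at 4.58, 5.04 and 6.15 with T+E at PND 100, and at 3.60 in that control (difference -4.66, SE 1.51, adjusted p = 0.285). The transporter Slc5a8 was at -9.21, -8.74 and -9.18 with T+E at PND 145 and at -3.63, -2.79 and -0.88 with T+E at PND 100, and at -3.42 in that control. With the ventral products as a covariate the differences were -2.66 for Cd55 (adjusted p = 0.623 in limma), -2.42 for Cd22 (adjusted p = 0.797) and -2.93 for Slc5a8 (adjusted p = 0.813). All 3 were singled out after their values were seen.

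S100g, a calcium-binding protein known in rat uterus as an estrogen target, stood above controls at both ages. It was at -4.55, -3.26 and -4.30 with T+E at PND 145 and at -3.35, -4.24 and -6.06 with T+E at PND 100, while the 6 controls lay between -9.33 and -8.88. It missed the threshold in each comparison with controls (adjusted p = 0.0506 at PND 145 and 0.106 at PND 100), and it differed by 0.51 between the T+E groups.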
